A study of Mus musculus with 3 samples.

Results

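The genes described here are the ATP-binding cassette (ABC) genes and the organic anion transporter genes of the Slco family. Their members were found by symbol, as every array gene whose name starts with Abca, Abcb, Abcc, Abcd, Abce, Abcf, Abcg or Slco followed by a digit. This gave 65 genes of 24841 on the array, of which 50 were ABC genes and 15 were Slco genes, read by 147 probes. The cells were Hepa1c1c7, a mouse hepatoma line that is widely used to study the aryl hydrocarbon receptor. They had received a vector for Cd74 (invariant chain, the chaperone of MHC class II and a surface receptor of the cytokine MIF), a vector for Tmem54 (a transmembrane protein) or an empty vector, labelled Empty. All 3 groups thus share the cell line and the act of transfection. Total RNA of each group was hybridised to 1 Agilent 1-colour (Cy3) array. The way in which the vectors were delivered, the number of clones and the time of harvest are not given in the sources used here. Since each vector has 1 array, no difference has a replicate and none could be tested.

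ABC proteins use ATP to move lipids, bile salts, drugs, peptides and other molecules across membranes, and they are built as 1 long chain or as a pair of shorter ones. In the liver, those of the canalicular membrane, which faces the bile, secrete bile salts, phospholipid, sterols and conjugates, while several Abcc proteins of the blood-facing membrane export the same kinds of molecules back to the blood. Slco proteins work in the other direction and take organic anions, such as bile salts, hormone conjugates and prostaglandins, up from the blood without using ATP. The small ABC branches Abce and Abcf have the ATPase domains but no membrane segments and act on ribosomes.

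Each value is a processed signal, a linear intensity that the scanner's software had corrected for background and detrended. A difference is that of log2 signals after each array was scaled to its 75th percentile, so 1 on this scale is 2-fold. The error beside a difference, written ±, is the software's model of noise within the 2 arrays and holds no spread between cultures. Signals of different genes come from different probes, so a signal is compared between arrays only and never between genes. The transfected genes were bright on their own arrays: the Cd74 probe had 10855.5 on the Cd74 array, 22.4 on the Tmem54 array and 26.8 on the Empty array. The Tmem54 probe had 19746.7 on the Tmem54 array while the Cd74 and Empty arrays did not read it well above background. All 3 arrays lay on 1 slide. Of the liver markers, 7 of 10 were well above background on every array, with Apoa1, Ttr and Hnf4a not above it on any, and their summed signal, led by the keratins Krt18 and Krt8, was 454073 for Cd74, 517678 for Tmem54 and 494471 for Empty. Of these 7, 6 were below Empty with Cd74 (median -0.20) and 7 above it with Tmem54 (median 0.07), and Alb, for albumin, differed by -0.87 with Cd74 and 0.83 with Tmem54. Markers of other liver cell types were read too: 4 of 5 for cholangiocytes, 4 of 5 for macrophages and 2 of 5 for endothelium were well above background on every array, the exceptions being Epcam, Adgre1 and Cdh5, Kdr and Tek. Their summed signals were 33790.3, 43427.9 and 39619.7 for cholangiocytes, 8710, 9524.9 and 9651.6 for macrophages and 106.3, 124.7 and 137.4 for endothelium on the Cd74, Tmem54 and Empty arrays. All 5 stellate cell and fibroblast markers were detected, with sums, nearly all from Dcn, of 81285.2, 69215.5 and 77548.3 in the same order. The other 4 of these markers were below Empty with Cd74 and above it with Tmem54, and the list medians were -0.55 and 0.25. The part of these markers in the differences below was not tested.

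Of the 65 genes, 43 had at least 1 probe well above background on at least 1 array, 66.2% of them against 63.6% of all genes on the array. The 2 families differed in this. Of the ABC genes 37 of 50 were detected, and of the Slco genes 6 of 15. Of the 43 genes, 39 were well above background on all 3 arrays, and the exceptions were Abca4, Abca9, Abcc8 and Slco1a6. The other 22 genes had 44 probes with signals between 2.62 and 14.5. The lowest signals called well above background were 13.5 for Cd74, 13.9 for Tmem54 and 13.1 for Empty, and most of these probes lay far below them. Several genes that define transport in the adult liver were among these 22. They were Abcb11 (the bile salt export pump), Abcg5 (which pairs with Abcg8), Slco1b2 and Slco1a1 (uptake carriers of hepatocytes) and Slco1a4 (a carrier of bile salts and digoxin). The others were Abca8a, Abca12, Abca13, Abca15, Abca16, Abcb5, Abcc9, Abcc12, Abcd2, Abcg1, Abcg3, Slco1c1, Slco4c1, Slco5a1, Slco6b1, Slco6c1 and Slco6d1. A signal at this height does not show that a transcript is absent.

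**Figure D1:**
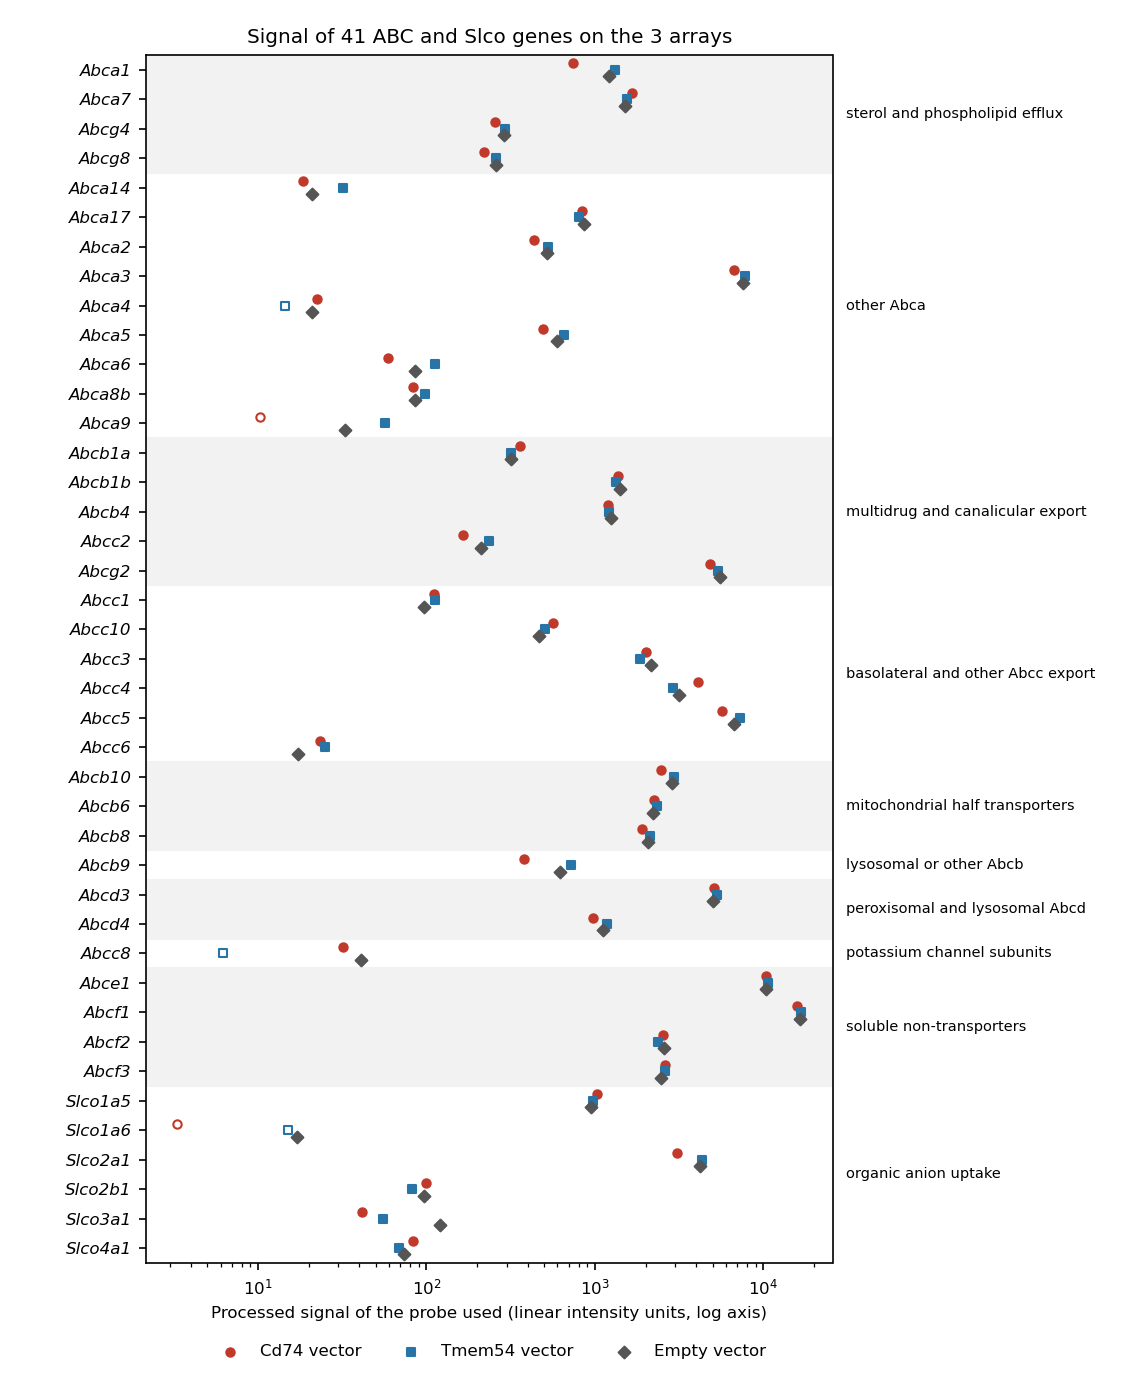
Processed signal (log axis) of the probe used for 41 of the 43 detected ABC and Slco genes on the Cd74 (circles), Tmem54 (squares) and Empty (diamonds) arrays, grouped by role. Open symbols are not well above background. For most genes the 3 symbols lie close together, and those of Slco3a1, Abca9 and Abcc8, the genes with 2-fold differences, lie apart.

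Most of the 43 genes differed by less than 0.25 on the log2 scale in each comparison. On the Cd74 array 0 genes were at least 2-fold higher than on the Empty array and 2 were at least 2-fold lower, Slco3a1 and Abca9. Across all 15630 genes compared, 2.42% passed 2-fold in either direction, 1.02% as higher and 1.4% as lower. On the Tmem54 array 0 genes were at least 2-fold higher than on the Empty array and 2 were lower, Slco3a1 and Abcc8, where 1.33% of 15521 genes passed, 0.522% higher and 0.812% lower. With Cd74 against Tmem54, Abcc8 was at least 2-fold higher and Abca9 at least 2-fold lower, where 3.32% of 15423 genes passed, 1.63% higher and 1.69% lower. Of these genes only Slco3a1 was measured on both arrays of its comparisons. Abca9 and Abcc8 are bounds, because 1 of the arrays did not read their probe well above background. With counts this small, the shares of the transporter genes are not read as different from those of all genes. The 3 comparisons share arrays, so they are not independent of each other.

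The middle of the distribution was also near that of all genes. For Cd74 against Empty, 41 of the genes were measured on both arrays, 20 above 0 and 21 below. Over all genes, 7827 were above 0 and 6866 below. The median difference was -0.04 against 0.02 over all genes, with a range of -1.48 to 0.50. For Tmem54 against Empty, 40 were measured, 26 above 0 and 14 below, where 7371 of all genes were above 0 and 7319 below. The median was 0.02 against 0.00 over all genes, with a range of -1.15 to 0.78. The share within 0.25 of 0 on the log2 scale was 70.7% for Cd74 and 87.5% for Tmem54, against 71.5% and 88.2% of all genes. The spread around 0 was thus wider on the Cd74 array in both sets of genes. For Cd74 against Tmem54 the median over 39 measured genes was -0.02, and 64.1% lay within 0.25, against 66.2% of all genes.

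**Figure D2:**
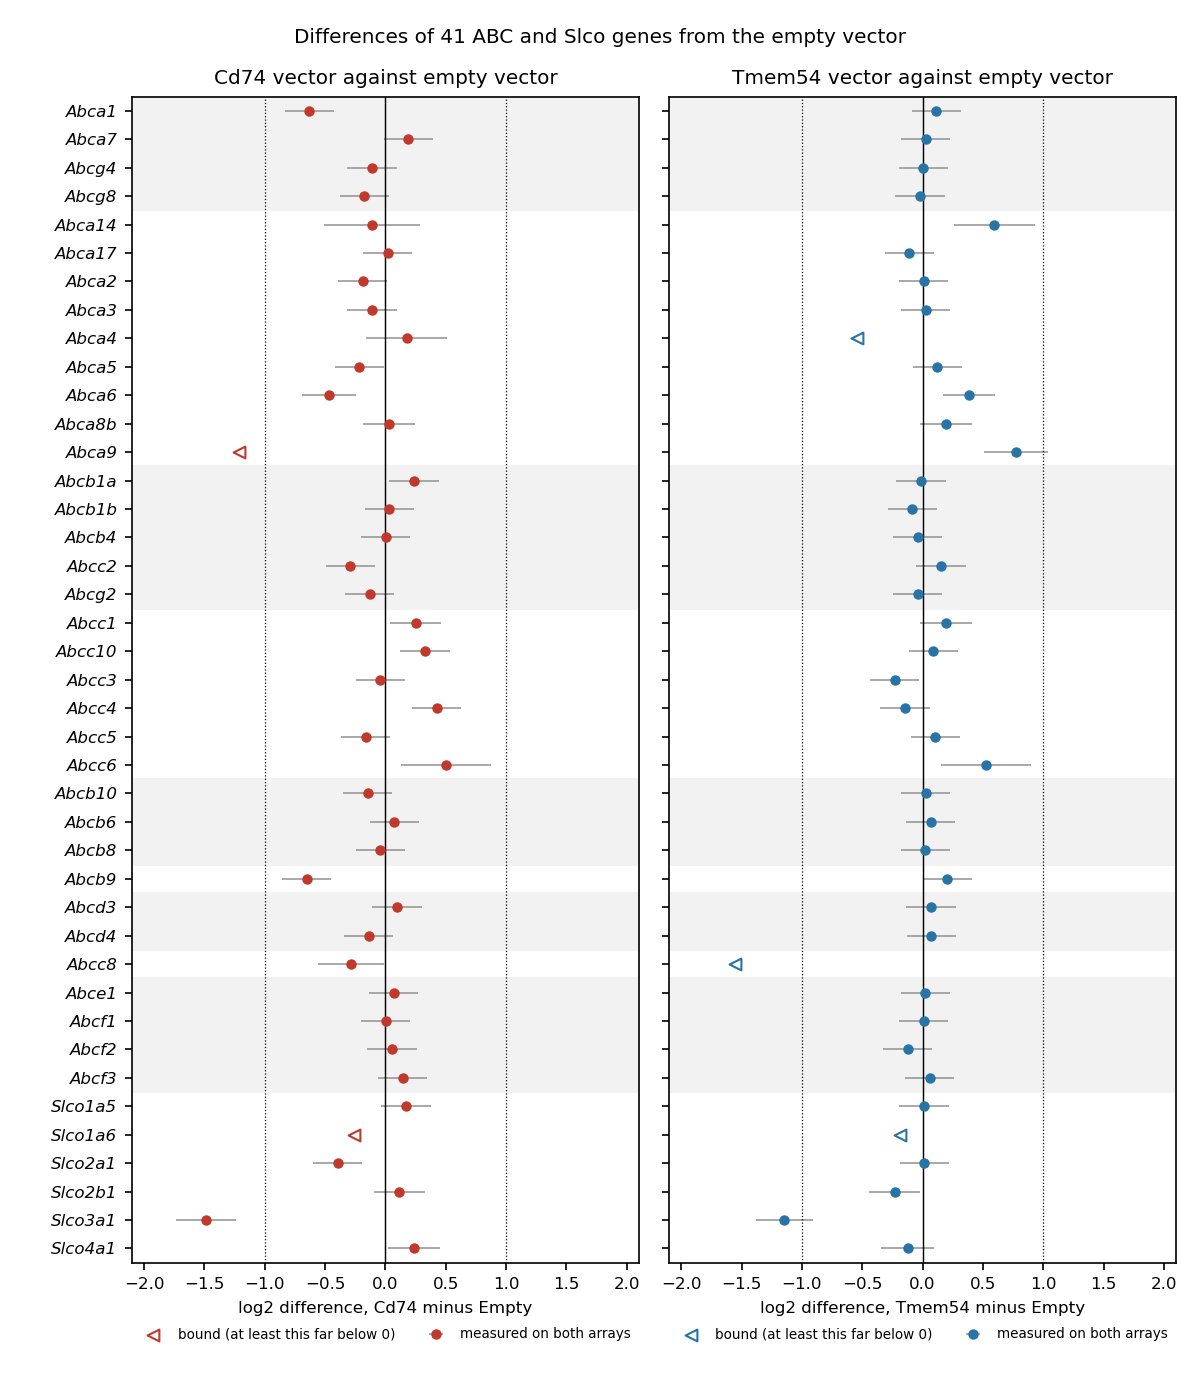
Log2 difference from the Empty array for 41 of the 43 genes, on the Cd74 array (left) and the Tmem54 array (right), with bars for the model error within arrays. Open triangles are bounds and dotted lines mark 2-fold. Slco3a1 lies beyond the lower line in both panels, and Abca9 (Cd74) and Abcc8 (Tmem54) are the bounds beyond it.

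Only 3 genes carry the 2-fold differences. For Slco3a1 and Abcc8 the first 30 of the 60 letters of the probe used are shown, as the array files hold them, to make clear which piece of transcript was measured. Both probes lie on the minus strand, at chr7:81426878-81426937 for Slco3a1 and chr7:53359908-53359967 for Abcc8 (build mm9).
Slco3a1: acggaggccctgggatgtactctgtttcat
Abcc8: gcacctcacttgcttgcctagtgtttcgta

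Slco3a1, whose human counterpart takes up prostaglandins and thyroxine, was lower with both vectors. Its probe had signals of 41.2 with Cd74 and 54.9 with Tmem54, against 120.6 with Empty. The Empty array, which both comparisons share, stands above both others. In RNA of a whole culture, fewer cells that express a gene and less RNA per cell cannot be told apart. The difference from Empty was -1.48 ± 0.25 for Cd74, which is 2.80-fold lower, and -1.15 ± 0.24 for Tmem54, which is 2.21-fold lower. Between Cd74 and Tmem54 it was -0.34 ± 0.25. The gene has 5 probes, and the other 4 were dimmer than the lowest signal called well above background on every array. Of these dim probes 1 is annotated to the same RefSeq transcript as the bright one, so a single probe carries the whole result. Normexp, another background correction, adds an offset of 50, which shrinks differences between dim signals. With it the differences were -0.67 for Cd74 and -0.58 for Tmem54 and no longer reached 2-fold.

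Abca9, a member of a lipid transporter subfamily whose genes stand side by side on chromosome 11, differed in opposite directions with the 2 vectors. Its signal was 10.3 on the Cd74 array, not well above background, 56.5 on the Tmem54 array and 32.7 on the Empty array. Tmem54 was the highest and Cd74 the lowest of the 3. Cd74 was at least 2.31-fold lower than Empty, Tmem54 was 0.78 ± 0.26 above Empty, and Cd74 was at least 3.97-fold lower than Tmem54. With normexp the bounds of Cd74 were -0.32 from Empty and -0.61 from Tmem54, under 2-fold, and the difference of Tmem54 from Empty was 0.29. The second Abca9 probe was not well above background on any array.

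Abcc8 encodes SUR1, the sulfonylurea receptor that regulates ATP-sensitive potassium channels of pancreatic beta cells and neurons. Its signal was 31.8 on the Cd74 array, 6.24 on the Tmem54 array, not well above background, and 40.6 on the Empty array. Here the Tmem54 array was the lowest. Tmem54 was at least 2.94-fold lower than Empty, and Cd74 was at least 2.41-fold higher than Tmem54. The difference of Cd74 from Empty was -0.29 ± 0.27. With normexp the bounds were -0.54 for Tmem54 against Empty and 0.49 for Cd74 against Tmem54, under 2-fold. Kcnj11, the channel pore that pairs with SUR1, was not well above background on any array. Kcnj8, which pairs with the product of Abcc9 (itself not detected), had signals of 75.2, 109.2 and 125.9 on the Cd74, Tmem54 and Empty arrays, a difference of -0.68 for Cd74 and -0.22 for Tmem54 from Empty.

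**Figure D3:**
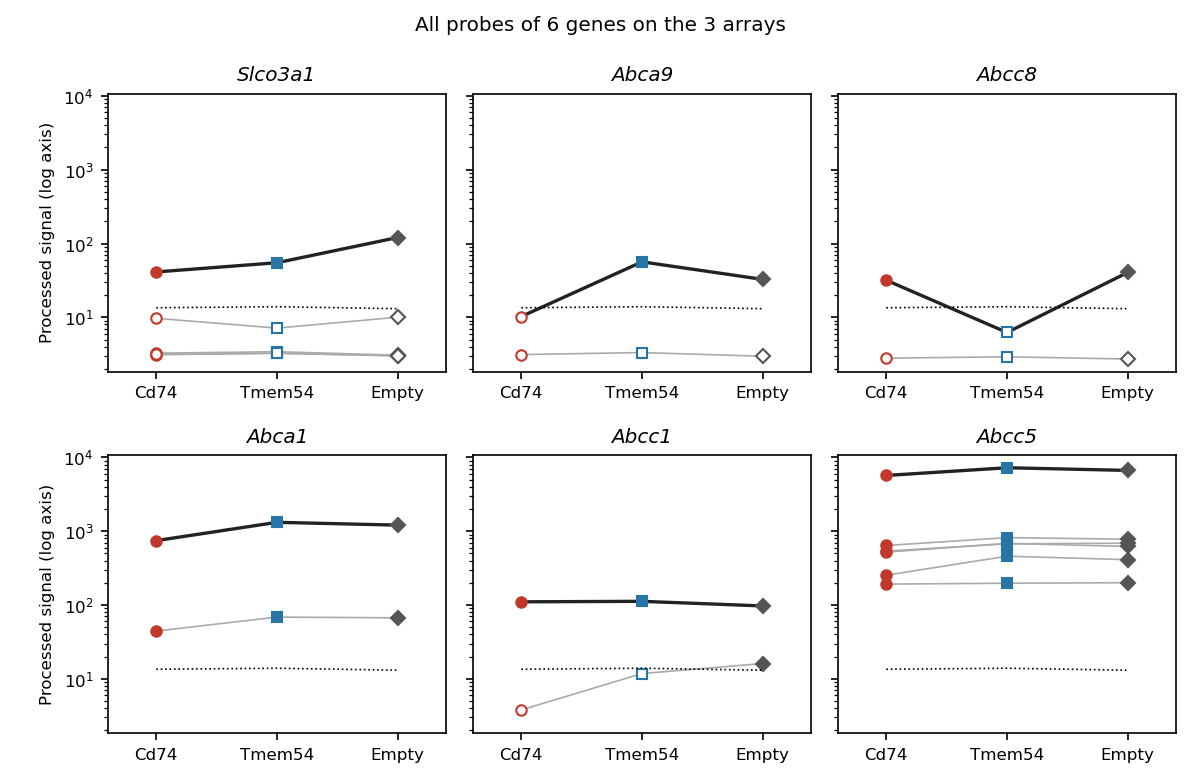
Processed signal (log axis) of every probe of 6 genes on the Cd74, Tmem54 and Empty arrays. Thick lines mark the probe used, open symbols are not well above background and the dotted line is the lowest signal well above background on each array. Slco3a1, Abca9 and Abcc8 each rest on 1 detected probe, while both Abca1 probes and the 6 Abcc5 probes are detected on all 3 arrays.

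No gene of sterol and phospholipid efflux reached 2-fold. Of 6 genes in this group 4 were detected, with a median difference from Empty of -0.14 for Cd74 and 0.02 for Tmem54. Abca1, which loads cholesterol and phospholipid onto apolipoprotein A1 to begin HDL formation, had signals of 745.8 on the Cd74 array, 1320.2 on the Tmem54 array and 1209.1 on the Empty array. Cd74 was the lowest, with a difference of -0.63 ± 0.20 from Empty (1.55-fold lower), while Tmem54 differed by 0.11 ± 0.20. A second probe at lower signal gave -0.53 for Cd74 and 0.02 for Tmem54, and over all alternatives the Cd74 difference lay between -0.65 and -0.53. Abca7, a related lipid exporter, had 1651.6, 1555 and 1513 on the Cd74, Tmem54 and Empty arrays, differences of 0.19 and 0.03 from Empty. Abcg8, which with Abcg5 secretes sterols into bile, had 219.8, 258 and 259.6, differences of -0.17 and -0.02. Abcg4, a sterol exporter best known from brain, had 256, 293 and 289.5, differences of -0.11 and 0.01, and its second probe gave 0.40 and 0.05, so that its sign with Cd74 depends on the probe.

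Of the 14 other Abca genes 9 were detected, with a median of -0.11 for Cd74 and 0.16 for Tmem54 against Empty. The members on chromosome 11 form a run of neighbours in the order Abca8b, Abca8a, Abca9, Abca6 and Abca5. From Empty, Abca8b differed by 0.03 with Cd74 and 0.19 with Tmem54, and Abca6 by -0.47 ± 0.22 and 0.38 ± 0.21. Abca5 differed by -0.22 with Cd74 and 0.12 with Tmem54. By the brightest probe, in Abca9, Abca6 and Abca5 the Cd74 array was thus below and the Tmem54 array above the Empty array, and Abca8a was not detected. The signals of Abca6 were 59.1 on the Cd74 array, 112.6 on the Tmem54 array and 85.5 on the Empty array, and its second probe gave -0.10 and 0.43. With normexp the Cd74 difference of Abca6 was -0.21. Those of Abca5 were 489, 653 and 595 in the same order, and its 2 other detected probes gave -0.01 and 0.11 for Cd74 and 0.19 and -0.02 for Tmem54, so its order depends on the probe. Outside the run, Abca14 had 18.4, 31.8 and 20.8 on the Cd74, Tmem54 and Empty arrays, a difference of -0.11 ± 0.40 for Cd74 and 0.60 ± 0.34 for Tmem54, which normexp put at 0.18. Abca4, a retinal flippase, had 22.5 and 20.8 on the Cd74 and Empty arrays and was not well above background at 14.4 on the Tmem54 array, which makes Tmem54 at least 1.46-fold lower than Empty. Abca3, which loads surfactant phospholipid into lamellar bodies of lung cells, was bright, with 6741.8, 7826 and 7623 on the Cd74, Tmem54 and Empty arrays. It differed by -0.11 and 0.03 from Empty, and its dim second probe by 0.39 and 0.64. Abca2, a transporter of lysosomes in brain, and Abca17 lay between -0.19 and 0.02 in both comparisons.

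Multidrug and canalicular export takes in 7 genes, and 5 of them were detected. Their medians were 0.00 for Cd74 and -0.04 for Tmem54 against Empty. Abcb1a and Abcb1b, the pair of mouse genes for the drug pump P-glycoprotein, and Abcb4, which moves phosphatidylcholine into bile, stand next to each other on chromosome 5. Abcb1a had 357.3 on the Cd74 array, 317.1 on the Tmem54 array and 317.3 on the Empty array, differences of 0.24 ± 0.20 and -0.01 ± 0.20. Abcb1b had 1374, 1337 and 1405 in the same order, differences of 0.03 and -0.08. Abcb4 had 1190.5, 1218 and 1243, differences of 0.00 and -0.04, so neither it nor Abcb1b left the range of the model error. Abcc2, which secretes conjugated bilirubin into bile, had 164, 235 and 209.9 on the Cd74, Tmem54 and Empty arrays, differences of -0.29 ± 0.21 and 0.15 ± 0.21. Abcg2, an exporter of drugs and urate, had 4812, 5402 and 5507, differences of -0.13 and -0.04, within the model error.

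Of the 7 Abcc genes of the blood-facing and other membranes 6 were detected, with medians of 0.29 for Cd74 and 0.10 for Tmem54. With Cd74 this was the highest median among the role groups of at least 2 measured genes. It lies between the values of Abcc10 and Abcc1, and the direction of Abcc1 depends on the probe. Abcc4, an exporter of cyclic nucleotides, prostaglandins and bile salts, was bright, with 4078 on the Cd74 array, 2900 on the Tmem54 array and 3179 on the Empty array. The Cd74 array was the highest, with differences of 0.42 ± 0.20 for Cd74 and -0.15 ± 0.20 for Tmem54 from Empty. Abcc4 has 1 probe, so the settings changed only its background correction and scaling. Its Cd74 difference then lay between 0.41 and 0.42. Abcc10, a drug exporter, had 562, 503 and 469 on the Cd74, Tmem54 and Empty arrays, differences of 0.33 ± 0.20 and 0.09 ± 0.20. Abcc6, a liver protein needed to keep pyrophosphate in the blood, had the dim signals 23.3, 24.9 and 17.2, and was higher with both vectors by 0.50 ± 0.37 and 0.53 ± 0.37, and with normexp by 0.19 and 0.16. Abcc3, the basolateral exporter of glucuronides, had 2001.5, 1856.5 and 2158, differences of -0.04 and -0.23. Its dimmer second probe gave 0.24 and -0.13. Abcc5, which exports cyclic nucleotides and other anions, differed by -0.16 and 0.11, at signals of 5693, 7238 and 6664 on the Cd74, Tmem54 and Empty arrays. It has 6 detected probes, and the probe annotated to another RefSeq transcript of the gene gave -0.63 with Cd74 and 0.14 with Tmem54.

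Abcc1, an exporter of glutathione conjugates, was read by 2 probes that did not give the same direction. The brighter probe, which has no RefSeq accession, had 110.5 on the Cd74 array, 112.3 on the Tmem54 array and 97.2 on the Empty array, differences of 0.25 ± 0.21 and 0.19 ± 0.21. The probe annotated to the RefSeq transcript had 3.80, 11.8 and 16.1 and was well above background on the Empty array alone. The direction of Abcc1 therefore depends on the probe. Over the 20 genes with more than 1 detected probe there were 31 pairs of a brightest and another probe, and in 28 pairs from 17 genes both were measured on all 3 arrays. The gap between the 2 differences was under 0.25 in 19 of the 28 pairs for Cd74 and in 26 for Tmem54, with medians of 0.16 and 0.10, and in 0 of these 28 pairs did it reach 1. In the 3 other pairs the second probe was not well above background on the Cd74 array. Their gaps for Cd74 came to -2.27 in Abcc1, -1.08 in Abca4 and -0.61 in Abca8b. These gaps rest on signals not well above background, so they are not measured sizes. The widest gap among the 28 was 0.87 for Cd74, in Slco2a1, and 0.62 for Tmem54, in Abca3.

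**Figure D4:**
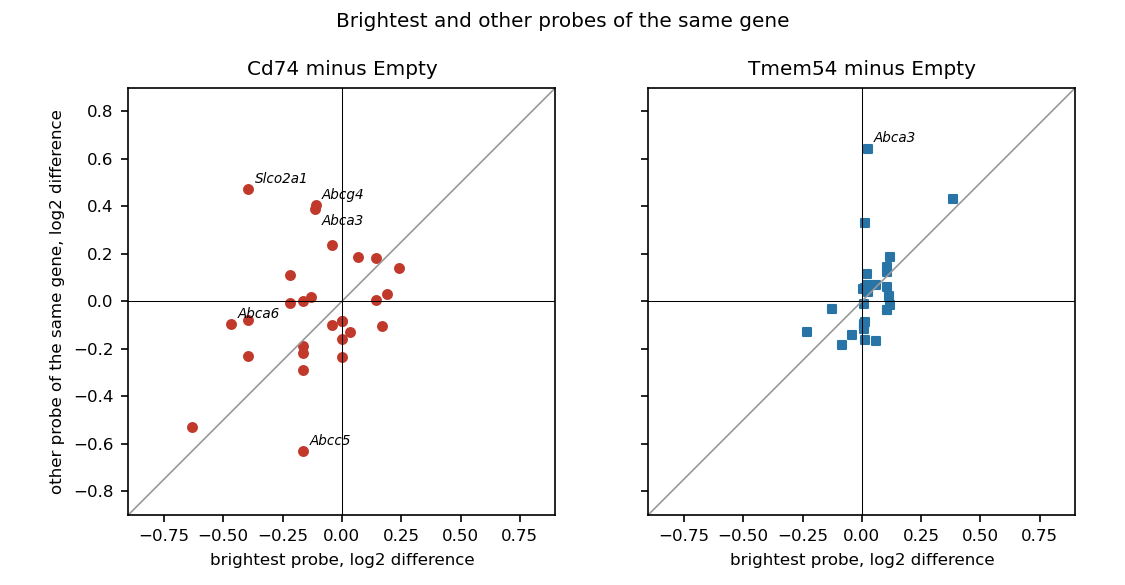
Log2 difference from the Empty array by the brightest probe of a gene (horizontal) and by another detected probe of the same gene (vertical), for Cd74 (left) and Tmem54 (right), over 28 pairs from 17 genes. Points on the diagonal agree, and the pairs with gaps of at least 0.35 are named, among them Slco2a1 at 0.87 for Cd74 and Abca3 at 0.62 for Tmem54.

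Among the genes of intracellular membranes named here, Abcb9 differed most. The 4 mitochondrial transporters, which serve heme and iron-sulfur cluster metabolism, were all detected, and their medians were -0.05 for Cd74 and 0.02 for Tmem54 against Empty. Abcb10 had 2470 on the Cd74 array, 2935 on the Tmem54 array and 2859 on the Empty array. Abcb6, Abcb8 and Abcb10 lay between -0.15 and 0.07 in both comparisons, on both sides of 0. Abcb9, a peptide transporter of lysosomes, had 377 on the Cd74 array, 720.7 on the Tmem54 array and 619.8 on the Empty array. Cd74 was the lowest, with -0.65 ± 0.20 (1.57-fold lower), and Tmem54 differed by 0.21 ± 0.20. Between Cd74 and Tmem54 the difference was -0.86 ± 0.20, the widest measured one of the genes described here in that comparison. Of the peroxisomal and lysosomal Abcd genes 3 of 4 were detected. Abcd3, the abundant peroxisomal membrane protein, had 5108, 5292 and 5001 on the Cd74, Tmem54 and Empty arrays, differences of 0.10 and 0.07. Abcd4, which takes part in the release of cobalamin from lysosomes, had 973, 1187 and 1119.5, differences of -0.14 and 0.07.

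The soluble members without membrane segments were bright and near 0. All 4 were detected, with medians of 0.06 for Cd74 and 0.01 for Tmem54 against Empty. Abce1, which splits ribosomes after termination, had 10435 on the Cd74 array, 10667 on the Tmem54 array and 10417 on the Empty array. Abcf1, which acts in translation initiation, had 15877, 16816 and 16586 in the same order. By these probes both genes stayed within 0.07 of the Empty array. The other 4 detected Abcf1 probes lay between -0.24 and -0.08 with Cd74, and the second Abce1 probe gave 0.19. Abcf2 had 2545, 2375 and 2565, differences of 0.05 and -0.12, and Abcf3 had 2612, 2599 and 2474, differences of 0.14 and 0.06. A list built around ribosome rescue and the GCN2 pathway, with which Abce1 and the Abcf proteins work, had 9 of 9 genes detected. Its medians were 0.10 for Cd74 and -0.01 for Tmem54. The list also holds general initiation factors and Gtf2f1, which lies outside both themes and was its highest gene with Cd74, at 0.30.

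Of the uptake carriers, Slco3a1 stood alone. Slco2a1, the prostaglandin transporter, had signals of 3075 on the Cd74 array, 4311 on the Tmem54 array and 4231 on the Empty array. Cd74 was the lowest, with -0.39 ± 0.20 (1.31-fold lower), and Tmem54 differed by 0.01 ± 0.20. Of its 3 other detected probes, 2 gave -0.23 and -0.08 with Cd74 and the third gave 0.47. Taking the median level over its probes on each array, which mixes probes of unlike brightness, gave 0.12 with Cd74. Slco4a1, a carrier of thyroid hormone in human cells, had 83.4, 68.4 and 73.9 on the Cd74, Tmem54 and Empty arrays, differences of 0.24 ± 0.22 and -0.12 ± 0.22. Slco2b1, a carrier of steroid sulfates, had 99.5, 82.6 and 96.3, differences of 0.11 and -0.23. Slco1a5, a bile salt carrier best known from the intestine, had 1026, 970.2 and 954, differences of 0.17 and 0.01. Slco1a6, its neighbour on chromosome 6, was well above background on the Empty array alone, at 16.9, with 3.32 for Cd74 and 15.0 for Tmem54, so that Cd74 was at least 1.20-fold and Tmem54 at least 1.14-fold lower than Empty.

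For Abca1, Abcb9 and Abcc4, the genes with the largest differences on the Cd74 array among those with signals over 100 on all 3 arrays, the promoters are shown so that the letters upstream can be read beside the values. Each runs from 250 bases before to 50 after a RefSeq transcript start on GRCm38.p6, on the minus strand, at chr4:53159846-53160145 for Abca1, chr5:124095749-124096048 for Abcb9, chr14:118706170-118706469 for the first Abcc4 start and chr14:118676882-118677181 for the second. Capitals mark matches, on either strand, to 5 motifs: the E-box CACGTG, the NRF2 response core TGACNNNGC, the dioxin response core GCGTG, the nuclear receptor element AGGTCA and the GC box GGGCGG.
Abca1: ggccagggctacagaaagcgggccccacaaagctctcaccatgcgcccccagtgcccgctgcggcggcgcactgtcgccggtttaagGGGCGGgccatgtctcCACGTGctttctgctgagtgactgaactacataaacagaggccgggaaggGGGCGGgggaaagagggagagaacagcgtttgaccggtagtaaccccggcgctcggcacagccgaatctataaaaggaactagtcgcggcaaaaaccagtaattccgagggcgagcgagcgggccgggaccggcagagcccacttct
Abcb9: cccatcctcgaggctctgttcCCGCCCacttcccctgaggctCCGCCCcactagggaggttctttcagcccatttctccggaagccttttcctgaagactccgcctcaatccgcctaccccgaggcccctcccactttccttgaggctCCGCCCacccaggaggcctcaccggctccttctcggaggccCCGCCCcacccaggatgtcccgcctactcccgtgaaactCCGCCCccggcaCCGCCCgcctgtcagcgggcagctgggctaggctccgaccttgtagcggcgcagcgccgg
Abcc4, first start: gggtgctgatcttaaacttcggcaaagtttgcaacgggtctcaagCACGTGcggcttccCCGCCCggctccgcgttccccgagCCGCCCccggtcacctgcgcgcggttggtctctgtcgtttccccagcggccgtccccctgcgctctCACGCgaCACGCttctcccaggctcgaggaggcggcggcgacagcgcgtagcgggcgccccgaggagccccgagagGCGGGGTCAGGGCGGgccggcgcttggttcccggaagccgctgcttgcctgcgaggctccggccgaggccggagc
Abcc4, second start: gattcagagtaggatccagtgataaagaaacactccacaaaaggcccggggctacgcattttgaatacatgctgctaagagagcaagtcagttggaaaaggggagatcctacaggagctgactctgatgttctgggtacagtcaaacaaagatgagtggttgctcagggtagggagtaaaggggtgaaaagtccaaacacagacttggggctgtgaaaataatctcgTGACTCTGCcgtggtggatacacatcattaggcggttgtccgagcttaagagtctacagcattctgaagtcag

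The Abca1 window holds an E-box that begins at -147 from the start and GC boxes at -163 and -97. The Abcb9 window holds 6 GC boxes and no match to the other motifs. The first Abcc4 window holds an E-box at -205, dioxin response cores at -101 and -94, an NRF2 response core at -25 and 3 GC boxes, the last of which adjoins the NRF2 core. The second Abcc4 window holds an NRF2 response core at -23 and no other match. Over all 32851 RefSeq promoters of this length, 7.15% hold the E-box, 12.4% the NRF2 response core, 32.4% the dioxin response core, 16.3% the nuclear receptor element and 35.7% the GC box. A match is a description of the letters and does not show that a factor binds there. The table gave a promoter for 32 of the 43 detected genes, and none was printed for Slco3a1.

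Regulators of transporter genes were read from a list of 20 nuclear receptors and other factors, of which 15 were detected, with medians of 0.05 for Cd74 and -0.03 for Tmem54 against Empty and 0 genes at 2-fold. Nr1h4, the bile salt receptor FXR, had 234.6 on the Cd74 array, 402.5 on the Tmem54 array and 401.9 on the Empty array, a difference of -0.71 for Cd74 and -0.01 for Tmem54. Nr1i3, the xenobiotic receptor CAR, was dim, at 36.3, 25.8 and 25.9, a difference of 0.55 for Cd74 and -0.02 for Tmem54. Nr1i2 (the receptor PXR), Nr0b2, Nr5a2, Hnf4a and Ppara were not well above background on any array. The LXR genes Nr1h2 and Nr1h3, which drive Abca1, differed by 0.05 and 0.12 with Cd74. A list of other LXR targets, which holds Nr1h3 too, had 7 of 10 genes detected. Their median was 0.01 with Cd74 and 0.17 with Tmem54. With Cd74, 5 were above 0, the highest being Apoe at 0.24. The other 2, Lpcat3 and Scd1, lay at -0.49 and -0.30.

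With Cd74, the partner lists of SREBP2 and NRF2 targets had medians of more than 0.5 from 0, against -0.04 for the transporter genes. All 8 detected SREBP2 targets of sterol synthesis and uptake were below 0 with Cd74, where 6866 of 14693 measured genes were. The SREBP2 targets had a median of -0.57, against 0.13 with Tmem54, and 0 of them reached 2-fold. Stard4, a sterol carrier protein, had 719.8 on the Cd74 array, 1312 on the Tmem54 array and 1229.9 on the Empty array, a difference of -0.71 for Cd74. In the NRF2 list, 11 of 12 genes were detected, with a median of 0.54 for Cd74 and -0.11 for Tmem54. The next-brightest probes, which only 4 of these genes have, gave 0.14 for Cd74 and 0.14 for Tmem54. Those medians differ from the first ones in genes as well as in probes. Of the 11 detected genes, 3 were at least 2-fold higher with Cd74, where 1.02% of all genes were. They were Hmox1 (heme oxygenase) by 1.93, Slc7a11 (cystine uptake) by 1.57 and Gsta2 (a glutathione transferase) by 1.25. Slc7a11 and Gsta2 were at least 2-fold lower with Tmem54, by -1.28 and -1.13, where 0.812% of all genes were. The list was chosen with earlier results of these data known. Abcc1, Abcc2, Abcc3 and Abcc4 are known in mouse liver as genes that NRF2 can drive. By their brightest probes they differed by 0.25, -0.29, -0.04 and 0.42 with Cd74. The signs of Abcc1 and Abcc3 depend on the probe, the second Abcc3 probe giving 0.24. Between these lists and the transporter genes no relation was tested.

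**Figure D5:**
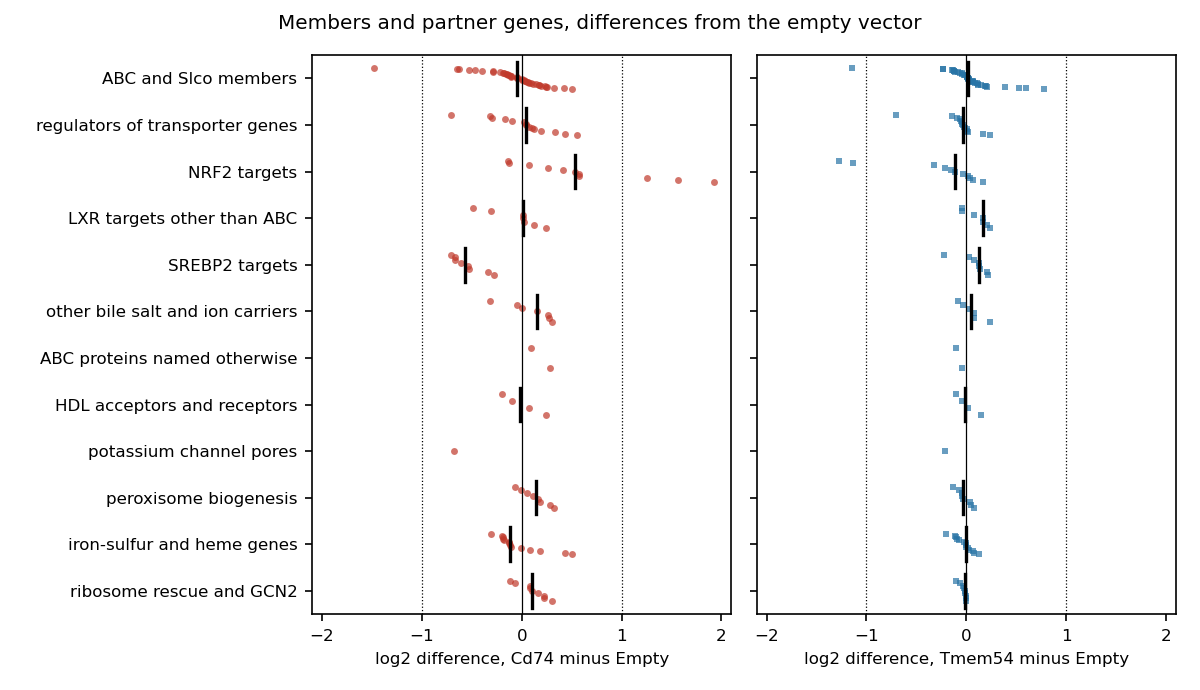
Log2 difference from the Empty array for the measured ABC and Slco genes (top) and for the partner lists, on the Cd74 array (left) and the Tmem54 array (right). Each point is 1 gene, bars are medians of lists with at least 3 measured genes and dotted lines mark 2-fold. With Cd74 the NRF2 targets have a median of 0.54 and the SREBP2 targets one of -0.57, while the transporter genes have -0.04. The next-brightest probes, over only those NRF2 targets that have one, gave 0.14.

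The medians of the other carriers and partners were near 0. Slc10a1, the sodium-driven bile salt uptake carrier of hepatocytes, had the bright signals 156390, 162002 and 163869 on the Cd74, Tmem54 and Empty arrays, differences of 0.00 and -0.03, and 7 of the 16 carriers on its list were detected, with medians of 0.15 and 0.05. Slc22a7, an organic anion carrier, had 18.2 on the Cd74 array and 23.6 on the Empty array, a difference of -0.31, and its Tmem54 signal of 14.3 was not well above background. Tap1 and Tap2, ABC genes of antigen presentation whose names lie outside the families chosen here, differed by 0.09 and 0.28 with Cd74 and by -0.05 and -0.11 with Tmem54. Cftr, an ABC chloride channel, was well above background on the Empty array alone. The HDL acceptors and receptors had medians of -0.01 with both vectors over 4 of 8 detected genes. The 8 peroxisome biogenesis genes had medians of 0.14 for Cd74 and -0.04 for Tmem54, and the 14 iron-sulfur and heme genes had -0.12 and 0.00. Of these 14, 10 were below 0 with Cd74, where 6866 of 14693 measured genes were. Alas1, the first enzyme of heme synthesis, was above 0 at 0.50, against -0.21 with Tmem54. The next-brightest probes, over only the genes of this list that have one, gave a median of 0.22 with Cd74.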

How the data were processed

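Total RNA of Hepa1c1c7 cells with the Cd74, Tmem54 or Empty vector was read on 1 array each, and groups follow the transfection label. Per the submitters' processing notes, Agilent Feature Extraction 12.0.3.1 made each deposited intensity. It is a processed signal that was detrended, per the file headers, with a preset multiplicative error of 0.1 in its error model. The array files place their probes on build mm9. A value table deposited beside them holds a ratio, 1 constant per array being the divisor of its processed signals (559.8 for Cd74, 580.7 for Tmem54 and 580.3 for Empty), as a comparison with the arrays showed. Its scale is linear and it is not centred, with column medians of 0.0393, 0.0390 and 0.0409 in the same order.

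Control spots and 119 to 135 outlier-flagged spots per array were left out of 62976, and 0 spots were saturated. The log2 processed signal minus that of the array's 75th percentile was used, with replicate spots averaged. A gene took its brightest probe among those detected, meaning well above background on 1 or more arrays. Where 1 of the compared arrays was not well above background, the bright array's value was compared with the dim array's lowest detected signal, or with the probe's own where that was higher. Such bounds are given as at least N-fold. Genes were counted from 2-fold. Symbols came from RefSeq on GRCm38.p6, which matched 33658 probes by accession, 9822 by symbol and 310 by synonym, with 12657 unmatched; the 147 transporter probes kept the symbols of the array files. Python 3.11.15 with numpy 2.4.6 and pandas 2.3.3 was used, with limma 3.58.1 in R 4.3.3 for normexp. The calling step was tested on simulated data. Their noise was below the model error, and the same genes counted as detected on every simulated array. The test therefore does not gauge calls near background. Precision is limited by the number of arrays.

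The members and lists were chosen with earlier results of these data known. Genes were named by rule: all at 2-fold, the 10 brightest and up to 4 per role with the largest differences. In each partner list the rule took those at 2-fold and up to 3 others. Naming genes whose probes differ by at least 1 in a contrast was planned too but not applied. Abca2, Abca4, Abca8b, Abca17, Abcb4, Abcc3, Slco1a5 and Slco1a6, with several partner genes, were added after their values were seen. A few genes and sequences are not reported here. Alternatives changed background correction, scaling, probe choice and filter.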

Additional observations from a re-analysis of the deposited data

How the results depend on the processing

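The transporter genes that passed 2-fold were 2 in each comparison. Normexp correction gave 0 for Cd74 against Empty, Tmem54 against Empty and Cd74 against Tmem54 alike. Its offset of 50 is larger than the Empty signals of Abca9 and Abcc8 (32.7 and 40.6) and the Cd74 signal of Slco3a1 (41.2). Differences at such signals shrink by construction, so this count does not test them. The next-brightest probe and a filter for bright genes also gave 0 in each, by construction, since Slco3a1, Abca9 and Abcc8 have no second detected probe and are not among the bright genes. With normexp 119, 66 and 197 of all genes compared were still at 2-fold. Taking only genes well above background on all 3 arrays gave 1, 1 and 0 in the same order, which leaves Slco3a1 and removes the bounds by construction. With no filter on background the counts were 11, 7 and 6, while 1613, 1351 and 1702 of all genes passed. Centring on the median of detected probes, quantile normalization, the deposited value table and the median over detected probes kept 2 in each comparison, and they were the genes named above. In all 27 alternatives the median differences of the transporter genes moved by less than the median model error of single genes. That margin is wide for a median over many genes, so it is not a close check.

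The next-brightest probe moved some list medians, over the genes that have one. It gave -0.10 for the uptake carriers with Cd74 against Empty. It gave 0.14 for the NRF2 targets with Cd74 against Empty, 0.14 with Tmem54 against Empty and -0.32 with Cd74 against Tmem54. The SREBP2 targets gave -0.33 for Cd74 against Tmem54, and the iron-sulfur and heme genes 0.22 for Cd74 against Empty and 0.24 for Cd74 against Tmem54. This setting changes the genes in a list as well as their probes, and the part of each in these moves was not tested. For the single genes named by rule, 804 of 842 alternative values stayed within the model error, 38 moved and 0 reversed a 2-fold difference. Many of these values repeat the main value by construction. A change of filter keeps the probe and value of a well-detected gene, and the median over detected probes does so where no second probe is detected. A 2-fold difference could reverse only in Slco3a1, Abca9 and Abcc8, which have no second detected probe. These counts therefore do not show how stable the values are. With no filter, Abca9 gave -1.61 for Cd74 against Empty and -2.38 for Cd74 against Tmem54, and Abcc8 gave -2.71 for Tmem54 against Empty and 2.43 for Cd74 against Tmem54.

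No paired analysis was possible because each vector has 1 array and the labels give no replicate numbers, and for the same reason no replicate was left out. Signal over background limits the dim genes: 12 of the 43 detected genes had a signal under 100 on the Empty array, Abca9 and Abcc8 among them.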
